A study of Mus musculus with 23 samples.

Results

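Germline and meiosis genes are followed here in mouse embryonic stem (ES) cells that lose, regain or permanently lack Argonaute proteins. The members were chosen by gene symbol. The set consists of 10 genes, Dazl, Ddx4, Mael, Sycp1, Sycp3, Stra8, Rec8, Hormad1, Piwil2 and Tex19.1, of the 18412 genes in the tables, and all 10 were found. Polyadenylated RNA was sequenced strand-specifically in 23 samples of 11 groups. The stable lines were the Ago-null clones C62 and C86 (Blm-/-;Ago1,2,3,4-/-;CreERT2, 1 sample of each clone, n = 2), the line E7 (Blm-/-;Ago1,2,3,4-/-;CreERT2;hAgo2fl, n = 3), the line B9 (Blm-/-;Ago1,3,4-/-, n = 2) and AB2.2, which the series uses as wild type (n = 2). The other groups came from cells with the alleles of the clones and TT-FHAgo2, which is induced by doxycycline (dox). In the time course these cells had 2.5 µg/mL doxycycline for 48 h and were taken at once (0 h) or after 24, 48 or 96 h without it (n = 2 each). In the rescue, cells kept at 0.1 µg/mL doxycycline had 96 h without it and were taken then (no dox, n = 2) or after 48 h more at 0.1 or 2.5 µg/mL (n = 2 each). Every mutant line is also labelled Blm-/- (Blm is a DNA helicase), a genotype shared by all groups but AB2.2. All cells grew on gelatin in serum with leukemia inhibitory factor.

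Argonaute proteins carry microRNAs to messenger RNAs and lower their stability and translation, and most of the 10 genes are best known from germ cells. ES cells express part of the germline programme at low level. Its promoters are held down there by DNA methylation and by a Polycomb complex, PRC1.6, in which MGA with MAX reads E-boxes and E2F6 with DP1 reads E2F-type sites. The set spans several steps of germ cell life. Dazl is an RNA-binding translational regulator and Ddx4 is the mouse Vasa RNA helicase. Piwil2 is a PIWI protein that binds piRNAs, Mael acts in piRNA-guided silencing of transposons, and Tex19.1 also restrains retrotransposons. Stra8 is induced by retinoic acid at entry into meiosis. Rec8 is the kleisin of meiotic cohesin, Sycp3 and Hormad1 belong to the chromosome axis, and Sycp1 forms the transverse filament of the synaptonemal complex.

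The deposited columns hold group means of normalised reads, from which the reads of each library were worked out. Library totals ranged over 13.5 to 53.7 M exon reads for the stable lines, 32.9 to 62.4 M for the time course and 24.7 to 53.8 M for the rescue (M, mega). The columns carry no replicate number, so the libraries of a group are given here in order of depth. Nothing in the labels says that replicates were separate cultures, so p-values measure the spread between libraries, which may be technical. The labels call the TT-FHAgo2 cells clonal and do not say how many clones were used. Over all tested genes, the median standard error (SE) of a log2 change was 0.336 to 0.368 in the stable lines, 0.0797 over the time course and 0.091 over the rescue. Gene-wide reads do not check the loss of Ago2. Ago2 had 10794.3 normalised exon reads at 96 h and 11962.9 at 0 h, and 5688.7 at 2.5 µg/mL against 7280.0 with no dox, lower where doxycycline was given back (-0.36, adjusted p = 1.83e-06). Ago2 reads were also present in the clones (5818.9), E7 (5209.1), B9 (6734.2) and AB2.2 (6226.7). Ago1 was at 0 in the clones, E7 and B9, and at 4103.8 in AB2.2. Ago3 had 1361.8 reads in the clones and 487 in AB2.2, so reads over the whole gene do not check its loss either. Blm had 1568.7 reads in the clones, 2694.8 in E7, 3430.8 in B9 and 4807.6 in AB2.2, and 3653.5 to 5994.6 in the TT-FHAgo2 groups, so its labelled loss is not checked by these reads. The 6 ES cell markers (Pou5f1, Nanog, Sox2, Zfp42, Dppa5a, Esrrb) summed to 149951.5 to 436884.3 normalised reads per group, over series normalised apart. At 96 h against 0 h Nanog (log2 change 0.54), Sox2 (0.32) and Dppa5a (0.29) rose. Zfp42 (-0.48), Esrrb (-0.26) and Pou5f1 (-0.15) fell. At 2.5 µg/mL against no dox Esrrb (0.57), Pou5f1 (0.39) and Zfp42 (0.20) rose and Sox2 (-0.17) fell. These markers were not tested in the stable lines. There Nanog averaged 14860.2 reads in AB2.2 and 34416.5 to 35382.2 elsewhere, while Pou5f1 of AB2.2 (36226.6) lay among the others. Markers of late spermatogenic cells (Prm1, Prm2, Tnp1, Tnp2, Acrv1, Odf1) summed to at most 4.26, and at least 4 of those 6 were at 0 in every group. Oocyte markers (Zp1, Zp2, Zp3, Gdf9, Bmp15, Figla) summed to 83.5 to 408, most of it Zp3 and Bmp15, and fibroblast markers (Col1a1, Col1a2, Col3a1, Postn, Lum, Thy1) to 96.4 to 473. Only 2 of the 6 fibroblast markers, Col1a1 and Thy1, had enough reads to be tested. Col1a2, Col3a1, Postn and Lum averaged at most 2.52 reads in any group of the time course. Against 0 h, Col1a1 rose at 24 h (log2 change 1.57) and 48 h (1.29), and Thy1 at 24 h (0.79), 48 h (0.91) and 96 h (0.34). Thy1 also rose at 2.5 µg/mL against no dox (1.57) and against 0.1 µg/mL (1.06). Col1a1 averaged 23.6 reads in the clones, 48.2 in E7 and 282 in AB2.2, lower in the clones (-3.46) and E7 (-2.45) than in AB2.2. Bmp15 rose at 96 h (0.62) and was higher in E7 than in AB2.2 (3.62). The part of these markers in the values below was not tested. In such bulk samples fewer cells that express a gene and less RNA per cell cannot be told apart.

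Promoters are shown because most of them hold motifs that the germline gene repressors named above are known to read. RefSeq (GRCm38.p6) gave the 250 bases before the RefSeq start of 9 of the 10 genes, all but Piwil2. By the annotated gene coordinates (mm10), the Stra8 window lies wholly inside the gene, and the Ddx4 and Rec8 windows reach well into theirs. Capitals mark an E-box, CACGTG, which reads the same on both strands, or an E2F-type site, TCCCGC, which is GCGGGA on the other strand. The first 4 are those with an E-box whose windows lie before the annotated gene or reach it only at their end, and the last is that of the most abundant gene of the set.
Mael, chr1:166238745-166238994, minus strand: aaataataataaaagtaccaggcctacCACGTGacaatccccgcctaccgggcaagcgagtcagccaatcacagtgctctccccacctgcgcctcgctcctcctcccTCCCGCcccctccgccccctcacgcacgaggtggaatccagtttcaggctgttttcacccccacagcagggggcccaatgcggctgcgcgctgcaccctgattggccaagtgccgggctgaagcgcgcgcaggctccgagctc
Sycp1, chr3:102936101-102936350, minus strand: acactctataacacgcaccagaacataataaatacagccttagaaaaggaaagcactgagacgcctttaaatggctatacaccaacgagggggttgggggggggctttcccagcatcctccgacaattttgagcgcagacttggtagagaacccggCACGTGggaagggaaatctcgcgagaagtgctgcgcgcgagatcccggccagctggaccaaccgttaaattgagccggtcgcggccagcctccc
Sycp3, chr10:88459337-88459586, plus strand: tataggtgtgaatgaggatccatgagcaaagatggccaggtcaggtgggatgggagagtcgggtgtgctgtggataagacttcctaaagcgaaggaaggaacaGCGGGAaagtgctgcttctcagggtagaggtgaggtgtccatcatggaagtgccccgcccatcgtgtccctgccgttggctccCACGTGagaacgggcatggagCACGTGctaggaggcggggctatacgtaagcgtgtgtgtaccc
Hormad1, chr3:95559427-95559676, plus strand: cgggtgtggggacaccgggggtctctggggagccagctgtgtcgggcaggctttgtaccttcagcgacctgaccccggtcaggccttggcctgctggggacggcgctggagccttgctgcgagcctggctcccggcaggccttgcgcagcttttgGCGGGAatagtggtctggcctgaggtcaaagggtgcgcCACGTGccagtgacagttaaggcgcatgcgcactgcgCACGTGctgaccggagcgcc
Tex19.1, chr11:121145893-121146142, plus strand: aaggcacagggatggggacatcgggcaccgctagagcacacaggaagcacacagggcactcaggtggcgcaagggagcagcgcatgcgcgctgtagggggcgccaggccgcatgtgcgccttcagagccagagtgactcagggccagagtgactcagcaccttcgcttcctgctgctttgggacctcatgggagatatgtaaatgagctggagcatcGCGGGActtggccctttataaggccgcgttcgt
An E-box was in 5 of the 9 windows (Ddx4, Mael, Sycp1, Sycp3 and Hormad1), and 6.05% of all 27025 RefSeq windows of the same length have it. An E2F-type site was in 6 of the 9 (Ddx4, Mael, Sycp3, Rec8, Hormad1 and Tex19.1), against 16.9% of all windows. Both were in 4 of the 9, against 1.47% of all windows. Sycp3 and Hormad1 have 2 E-boxes each. Dazl and Stra8 have neither motif in this window. The E-box and E2F-type site of Ddx4 and the E2F-type site of Rec8 lie inside the annotated genes. Bases before the annotated Stra8 gene were not searched. A Y-box, CCAAT or ATTGG, was in 5 of the 9, against 34.5% of all windows. The windows of the set hold 5 (Stra8) to 31 (Ddx4) CpG dinucleotides, against a median of 6 over all windows. The E-box and the E2F-type site each contain a CpG, and the shares over all windows were not matched for CpG number. These matches describe letters and no binding was measured here.

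Levels were read per kilobase of the exon length that the authors deposited, so that genes can be compared. At 0 h Tex19.1 had 1929.6 normalised exon reads per kilobase, far above the next gene. Then came Hormad1 at 340, Piwil2 at 280, Ddx4 at 244, Sycp3 at 205, Rec8 at 189, Mael at 146 and Dazl at 120. Stra8 at 41.2 and Sycp1 at 21.4 were the lowest, and the 0 h libraries of neighbours in this order did not overlap. In AB2.2 the order was Tex19.1 (1439.4 per kilobase), Mael (159), Ddx4 (149), Rec8 (145), Sycp3 (134), Hormad1 (128), Dazl (114), Piwil2 (102), Stra8 (99.3) and Sycp1 (15.6). From Mael to Stra8 neighbours in that order lie closer to each other than the 2 AB2.2 libraries did for most of these genes. In the clones Tex19.1 again led, at 802 per kilobase, and Sycp1 was again lowest, at 2.39.

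After 96 h without doxycycline 7 of the 10 genes were lower and 3 higher. Sycp3, Sycp1, Tex19.1, Ddx4, Dazl, Mael and Piwil2 fell, and Stra8, Rec8 and Hormad1 rose. Most genes moved in this comparison, so the count must be read against them. A gene was called at a limma adjusted p below 0.05, and 65% of 13652 tested genes were called, 32.5% lower and 32.4% higher. The median log2 change of the 10 genes was -0.75, and that of all tested genes was -0.01. The libraries at 96 h lay wholly below those at 0 h for all 7 that fell and wholly above for all 3 that rose, as they did below for 40.9% and above for 40.3% of all tested genes. The 96 h cells were also 96 h longer in culture than the 0 h cells, and time in culture and loss of doxycycline cannot be told apart.

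Both RNA regulators of germ cells fell, on different schedules. Ddx4 had 687 and 704 normalised exon reads at 0 h, then 408 and 400 by 24 h, 323 and 387 by 48 h, then 292 and 349 by 96 h. It was already lower at 24 h (log2 change -0.78, SE 0.12, adjusted p = 1.47e-05), and at 96 h the change was -1.12 (SE 0.12, adjusted p = 3.3e-08). Most of the fall of Ddx4 was thus present at 24 h. Dazl had 379 and 332 reads at 0 h, then 383 and 413 by 24 h, 344 and 301 by 48 h, then 195 and 224 by 96 h. It differed from 0 h only at 96 h (-0.76, SE 0.14, adjusted p = 4.04e-05), with a step between 48 and 96 h (-0.62, adjusted p = 0.00109). At 24 h the Dazl libraries lay above those at 0 h, without a call (0.17, adjusted p = 0.329).

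Of the transposon-silencing genes, Tex19.1 and Piwil2 fell early and partly came back. Tex19.1 had 3363 and 3348 reads at 0 h, then 1177 and 1194 by 24 h, 890 and 912 by 48 h, then 1434 and 1480 by 96 h. Its log2 change was -1.50 at 24 h (SE 0.07, adjusted p = 2.01e-14), -1.90 at 48 h and -1.20 at 96 h (adjusted p = 1.51e-13), and the rise between 48 and 96 h was itself called (0.69, adjusted p = 2.2e-08). Tex19.1 libraries of the 4 times did not overlap. Piwil2 had 1389 and 1361 reads at 0 h, then 689 and 641 by 24 h, 876 and 754 by 48 h, then 941 and 1033 by 96 h. It was lowest at 24 h (-1.05, SE 0.09, adjusted p = 1.46e-09) and stood at -0.48 at 96 h (adjusted p = 5.39e-05). The later Piwil2 steps of 0.29 (24 to 48 h) and 0.28 (48 to 96 h) were called with all libraries. The first was not called without 24 h library 2 (0.24) or 48 h library 1 (0.18), nor the second without 48 h library 2 (0.17) or 96 h library 2 (0.21). Mael, the weakest of these calls, had 201 and 252 reads at 0 h, then 107 and 179 by 24 h, 85.8 and 143 by 48 h, then 133 and 136 by 96 h. Its change was -0.69 at 24 h, -1.02 at 48 h (adjusted p = 7.83e-04) and -0.74 at 96 h (SE 0.24, adjusted p = 0.00991). Mael was not called at 24 h without 0 h library 2 (-0.53) or 24 h library 1 (-0.33), nor at 96 h without 0 h library 2 (-0.58). With all libraries, the 24 h call was also missed with no filter on low values (adjusted p = 0.0672).

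Stra8, the gene of meiotic entry, went the other way and briefly. It had 44.5 and 75.5 reads at 0 h, then 349 and 310 by 24 h, 202 and 178 by 48 h, then 81.6 and 87.6 by 96 h. At 24 h it was 2.48 higher on the log2 scale (SE 0.22, adjusted p = 3.36e-09), the largest change of the 10 genes at that time, and 1.69 higher at 48 h. From 24 to 48 h it fell by 0.79 and from 48 to 96 h by 1.16 (adjusted p = 2.58e-04). The first of these falls was not called without 24 h library 1 (-0.70, adjusted p = 0.0655) or 48 h library 2 (-0.70, adjusted p = 0.0814). What was left at 96 h, 0.54 (SE 0.22, adjusted p = 0.0386), rests on 3 libraries and on the fit. With all libraries it was not called with no filter (adjusted p = 0.0845), in a fit of only the 2 groups (0.109) or by voom (0.103). It was 0.16 without 0 h library 1 (adjusted p = 0.563), 0.59 without 96 h library 1 (adjusted p = 0.0554) and 0.49 without 96 h library 2 (adjusted p = 0.116). Of 13 listed genes of the retinoic acid route tested at 96 h, 6 were called, a smaller share than the 65% of all tested genes. Of these 4 rose, among them the retinaldehyde reductase Dhrs3 (1.37), the binding protein Crabp2 (0.72) and the receptor Rara (0.31). The binding protein Crabp1 (-1.04) and the receptor Rarg (-0.36) fell. At 24 h 4 of the 13 rose and 2 fell, where 50.7% of all tested genes were called. At 48 h 5 rose and 1 fell, where 63.3% were called. At 2.5 µg/mL 3 of the 13 rose and 2 fell, where 63.8% of all tested genes were called. Crabp2 was not called without 0 h library 1 (0.59) or 96 h library 1 (0.26).

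The chromosome axis genes did not move as a group. Sycp3 had 222 and 237 reads at 0 h, then 203 and 245 by 24 h, 164 and 166 by 48 h, then 38.9 and 82.6 by 96 h. It was not called at 24 h (-0.04) or 48 h (-0.47, adjusted p = 0.0927, but 0.0231 by voom and 0.00842 in a fit of only the 2 groups), and fell late, by 1.52 between 48 and 96 h (adjusted p = 2.95e-05) and by 2.00 over the whole 96 h (SE 0.24, adjusted p = 1.41e-07). Sycp3 and Dazl both had their largest step between 48 and 96 h. At 48 h the Sycp3 libraries already lay below those at 0 h, while those of Dazl overlapped them. Sycp1, the least abundant gene, had 81.2 and 65.6 reads at 0 h, then 29.8 and 26.2 by 24 h, 10.5 and 21.8 by 48 h, then 15.5 and 23.2 by 96 h. Its log2 change was -1.36 at 24 h (SE 0.43, adjusted p = 0.0106), -2.19 at 48 h and -1.89 at 96 h (adjusted p = 4.52e-04), so it was low long before Sycp3. The 24 h call for Sycp1 was missed without 0 h library 1 (-1.20, adjusted p = 0.0831) or 24 h library 2 (-1.27, adjusted p = 0.0543). Rec8 had 379 and 399 reads at 0 h, then 498 and 460 by 24 h, 716 and 593 by 48 h, then 473 and 536 by 96 h, a peak at 48 h (0.74, SE 0.12, adjusted p = 6.11e-06). Its other calls rest on single libraries. With all libraries, the one at 24 h was also missed by voom (adjusted p = 0.0601) and with no filter (adjusted p = 0.061). The 24 h change of 0.30 was missed without 0 h library 1 (0.26), 0 h library 2 (0.34) or 24 h library 1 (0.24), and the 96 h change of 0.37 without 0 h library 1 (0.33) or 96 h library 2 (0.28). The steps of 0.44 from 24 to 48 h and -0.37 from 48 to 96 h were missed without 48 h library 1 (0.31 and -0.24), and the second also without 96 h library 1 (-0.28). Hormad1 had 674 and 632 reads at 0 h, then 696 and 593 by 24 h, 721 and 784 by 48 h, then 847 and 937 by 96 h. It rose over the full 96 h (0.45, SE 0.10, adjusted p = 3.67e-04). The change at 48 h (0.20, adjusted p = 0.0772) and the steps from 24 to 48 h (0.23, adjusted p = 0.0735) and from 48 to 96 h (0.24, adjusted p = 0.0569) missed the threshold. Each passed it in some other settings: the first in a fit of only the 2 groups (adjusted p = 0.0458) or with scaling by totals (0.0305), the second with scaling by totals (0.041) or without 24 h library 1 (0.0267), and the third in a fit of only the 2 groups (0.0376), by voom (0.0293) or without 96 h library 1 (0.0432).

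**Figure D1:**
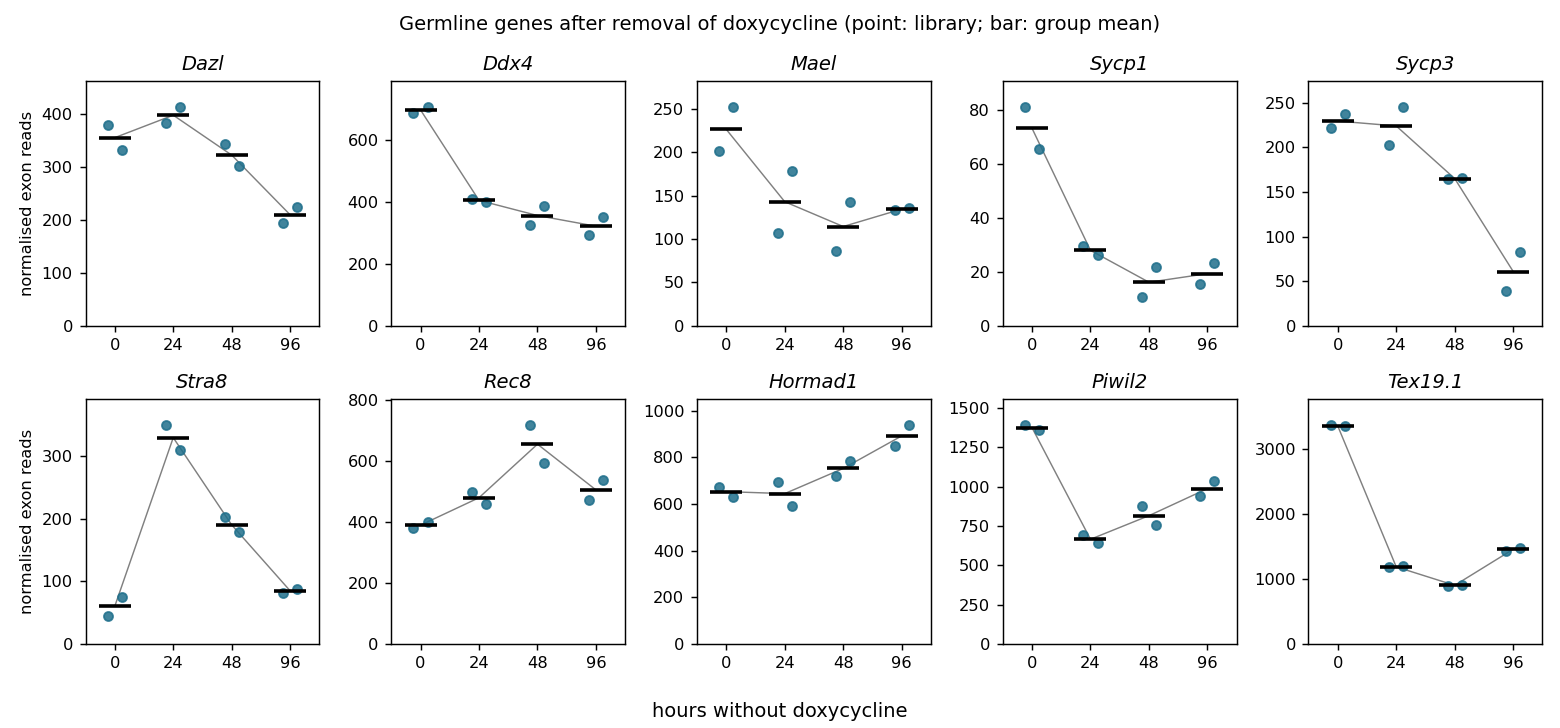
Normalised exon reads (vertical axis, from 0) of the 10 genes at 0, 24, 48 and 96 h without doxycycline, with a point for each of the 2 libraries of a time and a bar for their mean. Ddx4, Tex19.1, Piwil2 and Sycp1 are down at 24 h, Stra8 peaks at 24 h, Rec8 at 48 h, and Dazl and Sycp3 drop at 96 h.

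The counts by time follow from these courses. At 24 h 2 genes were higher (Stra8, Rec8) and 5 lower (Ddx4, Mael, Sycp1, Piwil2, Tex19.1), where 50.7% of all tested genes were called, 26.5% higher and 24.1% lower. At 48 h the same 2 were higher and the same 5 lower, where 63.3% of all were called, 32.1% higher and 31.2% lower. Between 24 and 48 h Rec8 and Piwil2 rose and Stra8 and Tex19.1 fell (39% of all called, 20.2% higher and 18.8% lower), and 2 of these 4 were called without 48 h library 1. Between 48 and 96 h Piwil2 and Tex19.1 rose and Dazl, Sycp3, Stra8 and Rec8 fell (36.4% of all called, 20.1% higher and 16.3% lower). The 3 comparisons against 0 h share the 0 h libraries.

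Giving doxycycline back raised 6 of the 10 genes at 2.5 µg/mL and lowered 1, where 63.8% of 13176 tested genes were called, 31.8% higher and 32% lower. Mael, Sycp1, Dazl, Tex19.1, Ddx4 and Sycp3 rose and Hormad1 fell. The median log2 change of the 10 was 0.68, and that of all tested genes was 0.00. At 0.1 µg/mL 4 rose (Dazl, Mael, Ddx4, Tex19.1) and none fell, where 44.1% were called, 22% higher and 22.1% lower. From 0.1 to 2.5 µg/mL Mael and Tex19.1 rose and Hormad1 fell, where 41% were called, 20% higher and 21% lower. The dosed cells were 48 h longer in culture than those with no dox. In the comparisons with no dox, dose given back and time in culture cannot be told apart. Both doses were given for 48 h. The share of intron reads, a sign of library composition, was 8.64 and 8.29% at 2.5 µg/mL, against 12.4 and 12.5% at 0.1 µg/mL and 12.2 and 12% with no dox, and its part in the exon values was not tested.

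Dazl had 134 and 178 reads with no dox, then 327 and 288 under 0.1 µg/mL, then 379 and 399 under 2.5 µg/mL. It was 0.99 higher on the log2 scale at 0.1 µg/mL (SE 0.16, adjusted p = 1.82e-05) and 1.33 higher at 2.5 µg/mL (adjusted p = 7.12e-08), and the doses differed by 0.34 without a call (SE 0.16, adjusted p = 0.101). Ddx4 had 263 and 243 reads with no dox, then 401 and 362 under 0.1 µg/mL, then 398 and 459 under 2.5 µg/mL. Its changes were 0.59 (SE 0.14, adjusted p = 0.001) and 0.76 (adjusted p = 3.03e-05), and again the doses were not told apart (0.16, SE 0.14, adjusted p = 0.365). For both genes the low dose already gave most of the rise.

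Tex19.1 and Mael separated the doses. Tex19.1 had 1099 and 1090 reads with no dox, then 1553 and 1527 under 0.1 µg/mL, then 2037 and 2269 under 2.5 µg/mL. It rose by 0.49 at the low dose (adjusted p = 3.16e-06) and by 0.97 at the high one (SE 0.07, adjusted p = 4.46e-12), with a difference of 0.48 between them (adjusted p = 5.42e-06). Mael had 72.9 and 99.2 reads with no dox, then 126 and 136 under 0.1 µg/mL, then 300 and 202 under 2.5 µg/mL. It was 1.52 higher at the high dose (SE 0.23, adjusted p = 1.69e-06) and 0.91 above the low dose (adjusted p = 0.00211), a difference not called without 2.5 µg/mL library 1 (0.63, adjusted p = 0.0894). The low-dose rise of Mael, 0.61, was not called without 0.1 µg/mL library 1 (0.67) or library 2 (0.56) or no dox library 1 (0.39). With all libraries it was missed by voom (0.63, adjusted p = 0.128) and with no filter (adjusted p = 0.0778). Piwil2 had 713 and 719 reads with no dox, then 806 and 735 under 0.1 µg/mL, then 806 and 852 under 2.5 µg/mL, a change of 0.21 at the high dose that missed the threshold (SE 0.09, adjusted p = 0.0521) but passed it by voom (0.21, adjusted p = 0.0452).

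**Figure D2:**
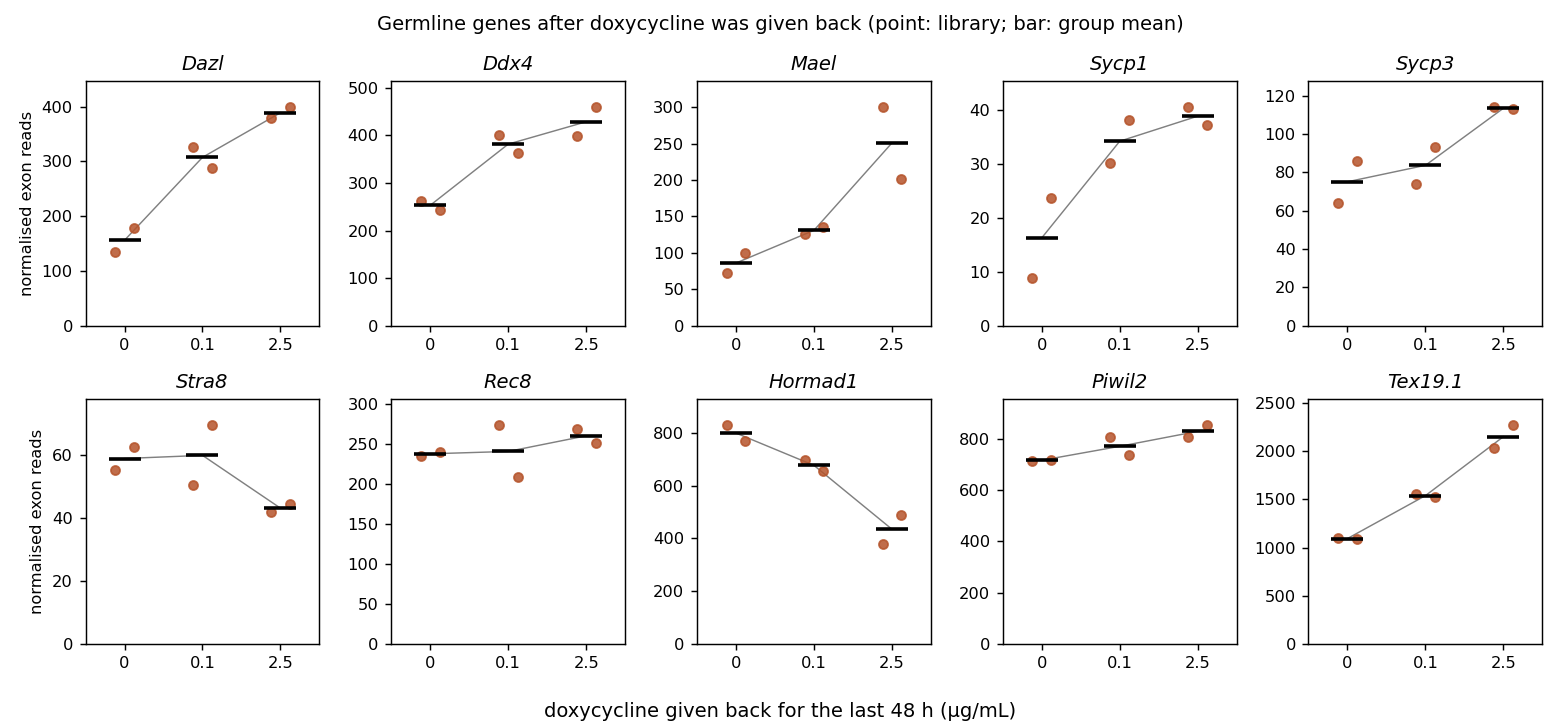
Normalised exon reads (vertical axis, from 0) of the 10 genes with no doxycycline, and after 48 h at 0.1 or 2.5 µg/mL, with a point for each of the 2 libraries and a bar for their mean. Tex19.1 and Mael step up with each dose, Dazl and Ddx4 are up at the low dose, Hormad1 is lower at 2.5 µg/mL, and Stra8, Rec8 and Piwil2 carry no call.

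Of the meiotic genes, Sycp1 had 8.86 and 23.7 reads with no dox, then 30.2 and 38.2 under 0.1 µg/mL, then 40.5 and 37.2 under 2.5 µg/mL. It rose by 1.35 at 2.5 µg/mL (SE 0.49, adjusted p = 0.0182), but was not called without 2.5 µg/mL library 1 (1.29, adjusted p = 0.0724) or no dox library 1 (0.69, adjusted p = 0.262). At 0.1 µg/mL its change of 1.16 was not called (adjusted p = 0.056), and was called without no dox library 2 (1.83, adjusted p = 0.0147). Sycp3 had 64.0 and 86.2 reads with no dox, then 74.1 and 93.3 under 0.1 µg/mL, then 114 and 113 under 2.5 µg/mL. Its rise of 0.60 stood at the threshold (SE 0.27, adjusted p = 0.0498) and was missed without either 2.5 µg/mL library (0.60 and 0.61) or no dox library 1 (0.39). It was also missed with a pseudocount of 0.5 (adjusted p = 0.0504), with scaling by total reads (adjusted p = 0.0707) and with no filter (adjusted p = 0.088). Hormad1 had 828 and 770 reads with no dox, then 697 and 656 under 0.1 µg/mL, then 379 and 490 under 2.5 µg/mL, a fall of 0.89 at the high dose (log2 change -0.89, SE 0.12, adjusted p = 1.67e-07) and of 0.65 from the low to the high dose (-0.65, adjusted p = 5.22e-05). Stra8 had 55.1 and 62.5 reads with no dox, then 50.3 and 69.3 under 0.1 µg/mL, then 41.8 and 44.3 under 2.5 µg/mL. Its libraries at 2.5 µg/mL lay below those with no dox without a call (-0.44, SE 0.33, adjusted p = 0.256). Rec8 had 235 and 240 reads with no dox, then 273 and 208 under 0.1 µg/mL, then 269 and 251 under 2.5 µg/mL, and was not called (0.13, SE 0.17, adjusted p = 0.522).

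Loss and return of doxycycline can be set side by side, since the comparisons share no library, though both used TT-FHAgo2 cells. Of the 7 genes that fell at 96 h, 6 rose at 2.5 µg/mL, all but Piwil2, which voom alone called. Among all genes that fell at 96 h and were tested in both series, 3198 of 4366 (73.2%) rose at 2.5 µg/mL, so the share of the set is near that of all genes. Of the 3 that rose at 96 h, Hormad1 alone fell at 2.5 µg/mL, and among all such genes 3230 of 4368 (73.9%) did. Rec8 and Stra8 did not fall at 2.5 µg/mL. Both fell between 48 and 96 h of the time course, Rec8 not without 48 h library 1 or 96 h library 1. Any link between these results was not tested.

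**Figure D3:**
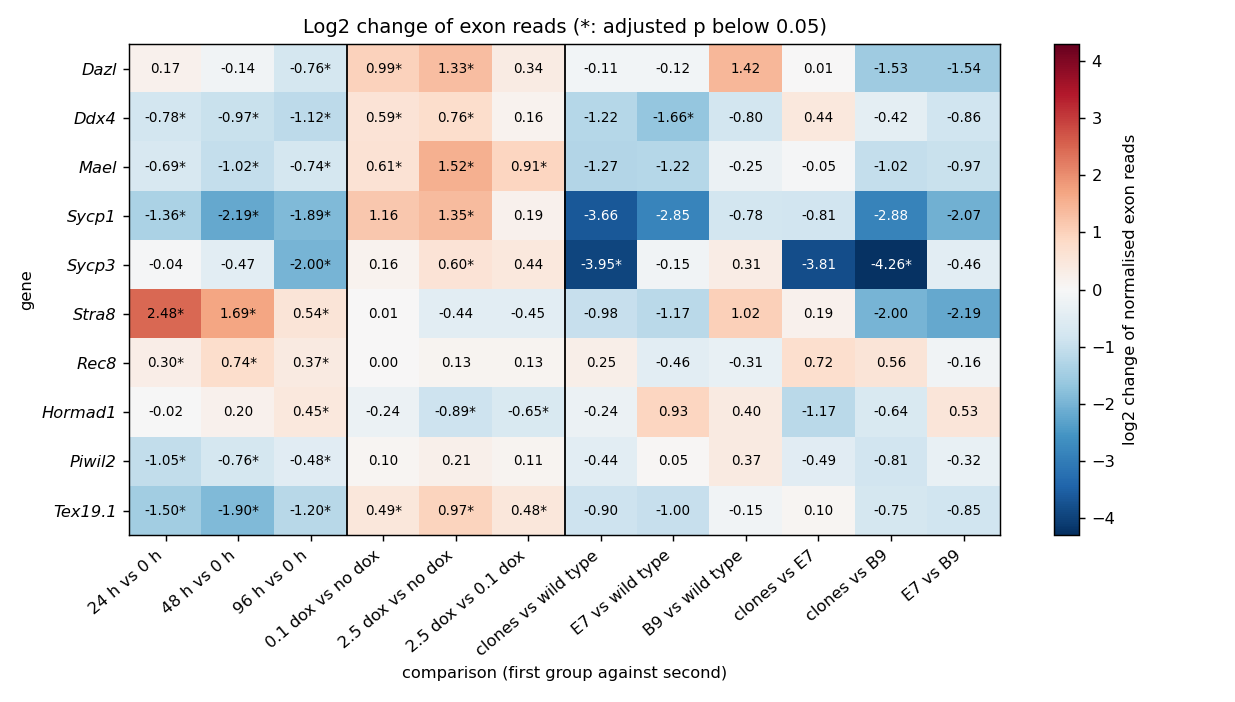
Log2 change of normalised exon reads for the 10 genes (rows) in 12 comparisons (columns), each the first group named against the second, with a star where the limma adjusted p is below 0.05. All 10 genes carry a star for 96 h against 0 h, 7 for 2.5 µg/mL against no dox, and few do among the stable lines.

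Intron reads, mostly from unspliced RNA, were tested to see whether the changes are also present before splicing. At 96 h 9 of the 10 genes had enough intron reads, and Rec8 rose (0.91, SE 0.21, adjusted p = 8.23e-04) while Dazl (-1.11, SE 0.33, adjusted p = 0.00667) and Ddx4 (-1.01, SE 0.30, adjusted p = 0.00751) fell, where 44.6% of 12225 tested genes were called. Ddx4 introns had 48.2 and 73.3 normalised reads at 96 h, against 113 and 129 at 0 h, and Dazl introns 27.2 and 33.1 at 96 h, against 74.1 and 59.1 at 0 h. Both intron calls rest on single libraries. Dazl was not called without 96 h library 1 (-0.98) or 0 h library 1 (-0.95), and Ddx4 not without 96 h library 1 (-0.71) or 0 h library 2 (-0.91), so that without 96 h library 1 only Rec8 was called. Stra8 introns rose with the exons at 24 h (3.01-fold, adjusted p = 6.74e-05), with 106 and 108 reads against 43.3 and 28.0 at 0 h, where 37.2% of genes were called. Rec8 introns rose at 48 h (1.06, adjusted p = 1.58e-04) and Sycp1 introns fell at 48 h (-2.09, adjusted p = 0.00205), to 10.2 and 5.23 reads against 33.7 and 35.3 at 0 h, where 43.4% were called. Stra8 introns were still higher at 48 h (0.84, adjusted p = 0.0205). Ddx4 introns were lower at 24 h too (-1.19, adjusted p = 0.00257), with 35.1 to 77.9 reads. At 48 h they had 53.8 to 62 reads (-1.05, adjusted p = 0.00587). For the intron calls at 24 and 48 h, results with a library left out are not given here. Tex19.1, with the largest exon level, had 0.729 to 15.4 intron reads in the time course and was not tested there. Its introns total 392 bases.

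Introns of Piwil2 and Hormad1 carried no call at 96 h. Piwil2 introns had 99.5 and 120 reads at 96 h and 97.2 and 119 at 0 h (0.02, SE 0.24, adjusted p = 0.947), while its exon reads were lower. Hormad1 introns had 465 and 422 reads at 96 h and 393 and 449 at 0 h (0.08, SE 0.11, adjusted p = 0.609). The difference between exon and intron change was not called for either (adjusted p = 0.112 and 0.223).

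At 2.5 µg/mL against no dox 8 genes had enough intron reads, and Sycp3 rose (1.15, SE 0.42, adjusted p = 0.0271) and Hormad1 fell (-0.57, SE 0.16, adjusted p = 0.00457), where 46.4% of 11580 tested genes were called. Hormad1 introns had 194 and 301 reads at 2.5 µg/mL and 368 and 353 with no dox, and without 2.5 µg/mL library 1 neither gene was called (Hormad1 -0.26, Sycp3 1.07). Sycp3 introns were also not called without no dox library 1 (0.83). Introns of Ddx4 (-0.01, SE 0.41, adjusted p = 0.985) and Dazl (0.44, SE 0.47, adjusted p = 0.458) carried no call, while their exon reads rose. The difference between exon and intron change was not called by limma for Ddx4 (0.80, adjusted p = 0.142) or Dazl (0.92, adjusted p = 0.0938).

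Exon change minus intron change was called for 1 gene at 96 h, Sycp3 (-1.97, SE 0.31, adjusted p = 0.0243), where 9.08% of genes were called. Sycp3 introns had 38.7 and 42.2 reads at 96 h and 41.4 and 41.5 at 0 h, so they did not follow the exons. The call was missed without any one of the 4 libraries, with values of -1.49 to -2.45 and adjusted p of 0.0555 to 0.0971. Sycp3 (chromosome 10, 88459569 to 88473236, plus strand, mm10) lies wholly inside Chpt1, a gene of phospholipid synthesis on the minus strand, 3063 exon bases of which fall in Sycp3 introns and 660 in its exons by GENCODE vM21. The libraries keep strand, but whether the counting used it is not given in the sources used here, so Sycp3 intron reads may include reads of Chpt1. Chpt1 had 698 and 816 exon reads at 96 h and 578 and 584 at 0 h (0.38, SE 0.10, adjusted p = 0.0016), and the part of Chpt1 in the Sycp3 values was not tested. The other genes overlap no protein-coding gene in that annotation.

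**Figure D4:**
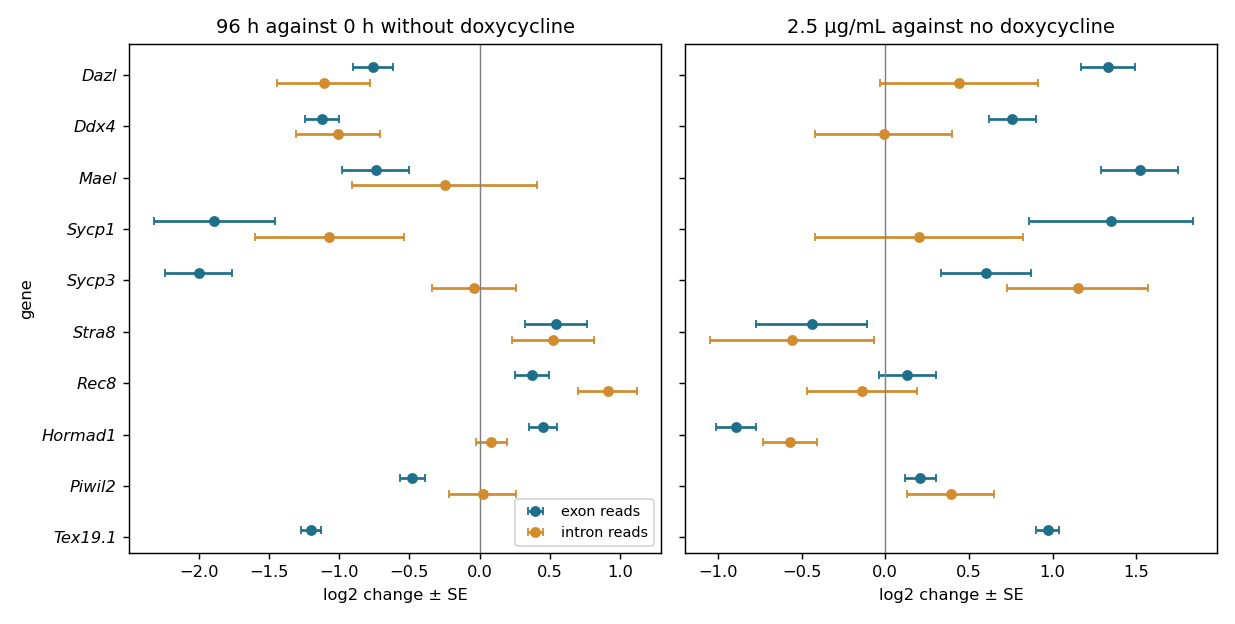
Log2 change with its standard error (horizontal axis) of exon reads (upper point of each row) and intron reads (lower point) for the 10 genes, for 96 h against 0 h and for 2.5 µg/mL against no dox. Exons and introns move together for Dazl and Ddx4 at 96 h, and part for Sycp3, whose intron change is -0.04.

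Among the stable lines few of the 10 genes passed the test, and libraries of 1 line differed widely. Sycp3 was the one gene lower in the clones than in AB2.2, with 17.4 and 2.67 reads in the clones against 68.7 and 231 in AB2.2 (-3.95, SE 0.93, adjusted p = 0.0152), where 18.6% of 13142 tested genes were called, 7.72% lower. It was also lower in the clones than in B9, with 84.4 and 290 reads (-4.26, SE 0.93, adjusted p = 0.016), where 13% of genes were called, 5.41% lower. Against E7, with 55.6, 151 and 175 reads, Sycp3 missed the threshold (-3.81, SE 0.85, adjusted p = 0.0523; 1.51% of genes called). The clone libraries of Sycp3 lay below every library of the other lines. The 2.67 reads of clone library 2 lie under the 4 normalised reads that a count of 0 allows there. The size of these changes is therefore uncertain. The calls against AB2.2 and B9 were missed by voom (-3.42 and -4.03), without clone library 2 (-2.79 and -3.10), without AB2.2 library 2 (-3.09) and without B9 library 2 (-3.38). Without clone library 1 the change against E7 was called (-4.97, adjusted p = 0.0111). Leaving out clone library 1 also added Sycp1 (-5.72) and Tex19.1 (-1.35) to the calls against AB2.2, and Tex19.1 (-1.20) to those against B9.

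Ddx4 was the one gene lower in E7 than in AB2.2, with 158, 88.6 and 170 reads in E7 against 411 and 438 in AB2.2 (-1.66, SE 0.36, adjusted p = 0.0287; 4.56% of genes called, 1.46% lower). The call was missed without E7 library 2 (-1.37, adjusted p = 0.0949) or either AB2.2 library (-1.71 and -1.62). In the clones Ddx4 had 160 and 207 reads, also below both AB2.2 libraries, with a change of -1.22 that was not called (SE 0.40, adjusted p = 0.0546). Mael (107 and 97.4 reads in the clones, 245 and 248 in AB2.2, log2 change -1.27, adjusted p = 0.0583) likewise missed it. Ddx4 and Mael were both called in the clones when reads were scaled by totals (-1.28 and -1.33) or tested by voom (-1.26 and -1.25). Tex19.1 had 1813 and 975 reads in the clones, 1170, 1341 and 1217 in E7, 2661 and 1892 in B9, and 2222 and 2784 in AB2.2, without a call in any comparison of these lines, though a fit of only E7 and AB2.2 called it lower in E7 (adjusted p = 0.0186). B9 against AB2.2, E7 against B9 and the clones against E7 gave 0 calls among the 10 genes by limma, with 0, 4 and 1 genes at an unadjusted p below 0.05, and 0 by voom in each. Of all tested genes 0.0685% were called for B9 against AB2.2, and 0.0685% for E7 against B9.

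The spread within lines was large for several genes. Dazl had 306 and 2247 reads in the B9 libraries, a 7.35-fold difference, and 526 and 156 in the clones, 164, 406 and 345 in E7, and 204 and 470 in AB2.2. Stra8 had 21.7 and 80 reads in the clones, 24.3, 61 and 33.2 in E7, 99.7 and 291 in B9, and 26.2 and 263 in AB2.2, a 10-fold difference. Hormad1 had 357 and 105 reads in the clones, 343, 296 and 829 in E7, 156 and 587 in B9, and 159 and 331 in AB2.2. Rec8 (109 to 404 reads) overlapped between the lines. Piwil2 had 375 and 343 reads in the clones, below the 384 to 846 of the other lines, without a call (-0.44 against AB2.2, adjusted p = 0.467). Sycp1 had 16.4 and 0 reads in the clones, an average of 12.5 over the E7 libraries with 1 of them at 0, 18.2 and 48.0 in B9, and 39.1 and 68.4 in AB2.2. A count of 0 allows up to 4 normalised reads in that clone library and 3.83 in that E7 library, for counting error only.

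In AB2.2 and B9, libraries that differed in the germline genes also differed in intron share. All 10 genes were higher in AB2.2 library 2 than in library 1 (median log2 difference 0.82), where 49.9% of all tested genes were higher, and 8 of the 10 in B9 library 2 (1.10). Intron reads made up 12.3% in AB2.2 library 2 and 9% in library 1, and 14% in B9 library 2 and 8.38% in library 1. In E7 they made up 14 and 13.9% in libraries 2 and 3 and 9.26% in library 1, and in the clones 9.97% in library 1 and 7.01% in library 2. Between E7 libraries 2 and 3, alike in share, 3 of the 10 genes differed by more than 1 on the log2 scale, as did 14.2% of all tested genes. Dazl, Sycp3 and Rec8 were higher, in all 4 lines, in the libraries with the larger intron share, as were 13.1% of all tested genes. Lower there in all 4 lines were 0 of the 10 and 13.4% of all tested genes. The part of intron share in the differences between lines was not tested.

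**Figure D5:**
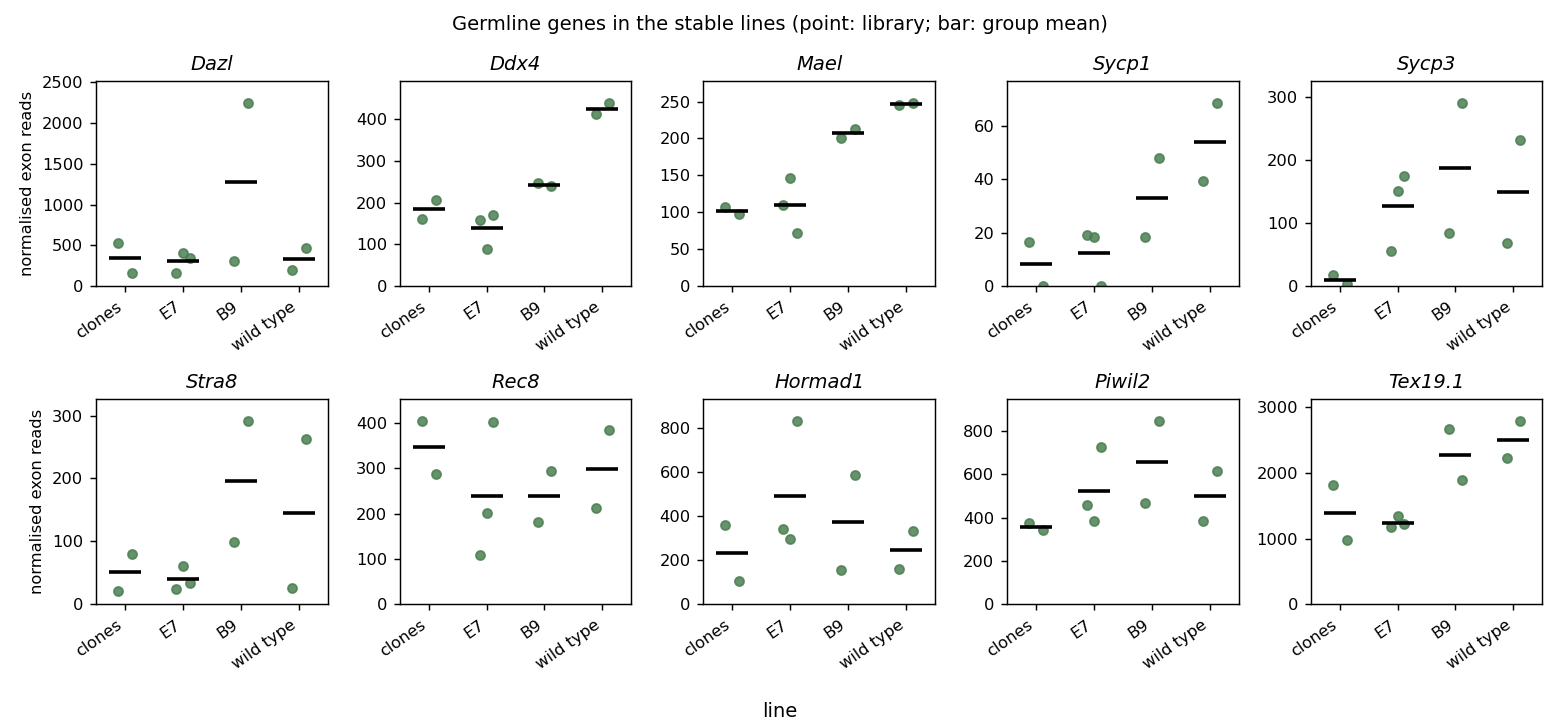
Normalised exon reads (vertical axis, from 0) of the 10 genes in the Ago-null clones, E7, B9 and AB2.2, with a point for each library and a bar for the group mean. Sycp3 is lowest in the clones and Ddx4 is highest in AB2.2, while the B9 libraries of Dazl, at 306 and 2247, lie far apart.

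Other germline genes were counted from lists that had been written down with earlier results of these data known. Of 21 listed genes of the meiotic axis and recombination tested at 96 h, 10 fell and 2 rose (median log2 change -0.47, against -0.01 for all genes), while at 2.5 µg/mL 5 of 18 rose and 4 fell (median -0.07). Of all tested genes 65% were called at 96 h and 63.8% at 2.5 µg/mL, so the called shares of this list lie below those of all genes. The helicase Hfm1, which acts in crossover formation, moved most. It had 8.34 normalised reads on average at 96 h, against 117 at 0 h (-3.75, SE 0.38, adjusted p = 7.28e-09), and 58.8 at 2.5 µg/mL, against 3.63 with no dox (3.70, SE 0.54, adjusted p = 1.21e-06). The axis protein gene Sycp2 (-1.94) and the telomere attachment gene Terb1 (-1.72) fell at 96 h, and Meioc (0.47), needed for meiotic prophase, and Tex11 (0.38), which acts in crossing over, rose. Terb1 was not called without 0 h library 2 (-1.40) or 96 h library 2 (-1.50), and Tex11 not without 0 h library 1 (0.38), 0 h library 2 (0.37) or 96 h library 1 (0.23). Tex11 fell at 2.5 µg/mL (-0.66), a call missed without no dox library 1 (-0.63).

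Of 16 piRNA pathway genes tested at 96 h, 7 fell and 2 rose (median -0.50), and at 2.5 µg/mL 7 of 15 rose and 2 fell (median 0.41), called shares below the 65% and 63.8% of all tested genes. The Tudor domain genes Tdrd5 (-2.09), Tdrkh (-1.44) and Tdrd1 (-1.22) fell at 96 h and were higher at 2.5 µg/mL (1.20, 1.66 and 0.97). Those 3 rises each rest on single libraries. That of Tdrd1 was also missed with all libraries, with no filter (adjusted p = 0.0694), in a fit of only the 2 groups (0.0547), with a pseudocount of 0.5 (0.0505) and with scaling by totals (0.0611). They were not called without 2.5 µg/mL library 1 (Tdrd5 0.93, Tdrd1 0.75), no dox library 2 (Tdrd5 0.69, Tdrd1 0.62), 2.5 µg/mL library 2 (Tdrkh 1.15) or no dox library 1 (Tdrkh 1.07). Mybl1, the transcription factor of pachytene piRNA genes, went against them, with 3190.3 reads at 96 h against 1434.2 at 0 h (1.16, SE 0.07, adjusted p = 6.43e-13) and 1029.6 at 2.5 µg/mL against 3031.3 with no dox (-1.56, adjusted p = 5.05e-16). Tdrd7 did the same (1.09 and -1.83).

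Of 15 genes of germ cell identity tested at 96 h, 7 fell and 5 rose (median -0.46), and at 2.5 µg/mL 7 rose and 5 fell (median 0.33), where 65% and 63.8% of all tested genes were called. Tex19.2, the close relative of Tex19.1 (-1.70), Dppa3, also called Stella (-1.41), and Taf7l (-1.33) fell at 96 h. Tex19.2 was not called without 0 h library 2 (-1.45), and if the counting shares reads between Tex19.1 and Tex19.2 their values are not independent. Taf7l rose at 2.5 µg/mL (2.13, adjusted p = 2.49e-04), and Dppa3 also (0.46), though not without 2.5 µg/mL library 1 (0.45) or no dox library 1 (0.42). The early germ cell specifiers Prdm14 (1.16) and Prdm1 (1.08) and the RNA-binding gene Dnd1 (0.85) rose at 96 h and fell at 2.5 µg/mL (-1.29, -0.74 and -0.47), Dnd1 not without no dox library 1 (-0.33).

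Genes of DNA methylation and of PRC1.6, which hold germline promoters down, were counted in the same way. The DNA methylation list also holds genes of demethylation (Tet2, Tet3 and Tdg), so its counts mix both. Tet1 had no matching symbol. Of 8 DNA methylation genes tested at 96 h, 5 fell and 2 rose (median -0.29), and at 2.5 µg/mL 5 rose and 3 fell (median 0.35), where 65% and 63.8% of all tested genes were called. Dnmt3l, the cofactor of the de novo methyltransferases, had 6414.4 reads at 96 h against 19486.9 at 0 h (0.329 of the 0 h mean, adjusted p = 3.08e-18) and 16109.4 at 2.5 µg/mL against 5197.9 with no dox (3.1-fold, adjusted p = 3.54e-20). The de novo methyltransferase gene Dnmt3b did likewise (log2 change -1.23 and 1.13), as did Tdg (-0.57 and 0.40), a glycosylase of demethylation, while the dioxygenase Tet3 (0.99 and -0.88) and the maintenance enzyme Dnmt1 (0.22 and -0.24) moved the other way. Of 19 genes of PRC1.6 and its partners 8 fell and 5 rose at 96 h (median -0.05), a called share near the 65% of all tested genes, all by less than 1 on the log2 scale. Cbx1 (-0.58), Tfdp1 (-0.57), which encodes DP1, and Pcgf6 (-0.43) fell most, and the methyltransferase genes Ehmt2 (0.34) and Setdb1 (0.30) and the subunit gene Yaf2 (0.30) rose most. Yaf2 was not called without 0 h library 2 (0.20), 96 h library 1 (0.29) or 96 h library 2 (0.31). At 2.5 µg/mL Cbx1 (0.49), Tfdp1 (0.45) and Pcgf6 (0.50) rose, and Ehmt2 (-0.17) and Setdb1 (-0.34) fell.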

How the data were processed

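Exon and intron reads of 23 samples were analysed in 11 groups. The authors deposited 6 tables whose columns hold a signal, the mean of normalised reads over the libraries of a group, per the file headers. TopHat2 2.0.12, DESeq and mm10 are named by the submitters' processing notes. No source used here gives the read counter or whether it used strand.

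Each mean is a sum of whole reads times 1 step per library, and a single whole-number solution was found for 404962 of 405064 values (99.975%, largest relative misfit 5.26e-15). The 102 others, all in E7, were left out of tests of the stable lines. No column was left out as belonging to no sample or group (0 such columns).

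The test covered genes averaging 10 or more normalised reads in a series, on log2(normalised reads + 1) with limma 3.58.1 in R 4.3.3 (trended prior, 1 fit per table over all its groups). Calls have an adjusted p below 0.05 (Benjamini-Hochberg, all genes tested). Fold changes of low genes are understated by the pseudocount. Within a group, exon and intron libraries were joined in the order with the highest mean correlation of their deviations from the group mean, 0.474 to 0.626 in the stable lines but 0.0259 to 0.155 in the other series. The fit was tested on simulated data. Tables were normalised apart, so levels are compared within a series. Intervals and limits at a count of 0 cover counting error only.

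The 10 genes and all lists were chosen with earlier results of these data known. All 10 are named in every comparison, and of each other list up to 3 of the largest called rises and 3 of the largest called falls at 96 h. Listed genes with no matching symbol (9) were not analysed here. Alternatives were another pseudocount, no filter, refitted size factors, scaling by total reads, voom, fits of only the 2 groups compared, and leaving out each library.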

Additional observations from a re-analysis of the deposited data

How the results depend on the processing

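The 51 called exon changes of the 10 genes were recomputed in 511 settings: 460 kept direction and call, 51 kept direction without a call, and 0 changed sign. Of the 89 uncalled changes, 22 of 919 settings gave a call, and 63 gave the opposite sign without one. Counts of called genes moved by more than 1.5 times as follows, and the cause was not tested. For the clones against AB2.2 the count was 3 with scaling by totals and 2 by voom, against 1. For E7 against AB2.2 it was 2 in a fit of only the 2 groups, against 1. For the clones against B9 it was 0 by voom, against 1. Exon minus intron at 96 h gave 0 with no filter, 0 in a fit of only the 2 groups and 0 to 0 with a library left out, against 1. At 2.5 µg/mL it gave 1, against 0, when the exon and intron libraries with no dox were paired the other way, an alternative chosen after seeing the data. Leaving out 1 library gave 0 to 3 for the clones against AB2.2, 0 to 1 for E7 against AB2.2, 0 to 1 for the clones against E7 (main count 0), 0 to 2 for the clones against B9, 2 to 4 for 48 h against 24 h, and, for introns, 1 to 3 at 96 h and 0 to 2 at 2.5 µg/mL. With 1 library left in a group, that library is assumed to vary like the others. Scaling by totals moved the median of all genes by less than 0.1. No paired analysis was possible because the deposited columns are group means without replicate numbers. At a count of 0 the depth allows up to 4 normalised reads of Sycp1 in a clone library and 3.83 in an E7 library.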
